A study of Mus musculus with 12 samples.

Results

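The centrosome and cilium genes examined here are the protein-coding mouse genes named Cep (centrosomal protein), Bbs (Bardet-Biedl syndrome) or Ift (intraflagellar transport) followed by a number and at most 1 letter. The name rule, which uses no measured value, found 58 genes among 25092 genes and repeats with deposited values (20574 of them protein-coding genes), namely 36 Cep, 8 Bbs and 14 Ift genes. The total RNA-seq compared mouse zygotes injected with siRNA against Lsm1 (Lsm1_KD, here KD) with zygotes injected with scramble siRNA (WT in the labels), and asked how the zygote transcriptome changes when LSM1, which in a ring of LSM proteins in the cytoplasm starts the decapping of mRNAs that have lost their poly(A) tail, is depleted. The RNA immunoprecipitation sequencing (RIP-seq) asked which RNAs are held by LSM1: zygotes received mRNA for Lsm1 carrying a FLAG tag (FLAG) or a control injection (Ctrl), and the lysate (Input) and the RNA caught on anti-FLAG beads (IP) were both sequenced. All 6 groups (KD, WT, Ctrl Input, Ctrl IP, FLAG Input and FLAG IP) had 2 libraries each, and all zygotes came from superovulated B6D2F1 females of 8 to 10 weeks, collected 18 to 20 h after hCG according to the labels. An RNA-seq library pooled a few embryos and a RIP reaction many more, and beyond the word independent nothing says which embryos a replicate came from, so p-values measure the spread between these libraries.

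The labels put the siRNA injection in zygotes, whereas the scheme of the study shows injection of germinal vesicle oocytes. The titles of the Ctrl RIP libraries name IgG and their treatment fields name Lsm1 mRNA without a tag, yet Lsm1 stood at 16.34 and 16.13 CPM (counts scaled to the library total) in Ctrl Input against 9931 and 14730 in FLAG Input, so what the control zygotes received cannot be told. In the RNA-seq, Lsm1 itself was lower in KD, at a mean of 67.3 against 145 normalized CPM (log2 fold change -1.10 ± 0.22 SE, adjusted p = 0.012, edgeR). Normalized CPM here are estimated counts scaled to library sizes corrected by TMM factors, and fold changes, standard errors (SE) and adjusted p-values are those of the quasi-likelihood test of edgeR, called at an adjusted p under 0.05. Library totals ran from 4636492 to 13968315 estimated counts in the RNA-seq and from 9865512 to 31586450 in the RIP-seq. The library of FLAG IP replicate 1 differed from all others: repeats took 12.7% of its counts (0.102% to 2.63% elsewhere), and it had a TMM factor of 1.87 (0.872 to 1.06 elsewhere) and Pearson correlations of log2 normalized CPM of 0.741 to 0.848 with the other RIP libraries, which correlated with each other at 0.941 or more. Results that rest on it are given with and without it.

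The zygote label was checked against markers. All 10 oocyte and zygote markers, such as the zona pellucida genes and Gdf9, were detected, and summed to between 21300 and 26600 TPM (a level scaled for transcript length and library total) over the RNA-seq libraries. The 8 cumulus cell markers summed to 0.963 to 1.19 TPM in KD and 0.267 to 0.4 in WT, with 5 of them, Foxl2 and Fshr included, at 0 in all 4 libraries. The 7 measured markers of the multiciliated cells of the oviduct summed to 10.7 to 11.2 TPM in KD and 12.9 to 14.3 in WT, with Foxj1 and Tekt1 at 0 in all 4. The 6 sperm markers summed to 28.1 to 39.9 TPM in KD and 10.6 to 11.6 in WT, without overlap, with Prm1, Tnp1, Tnp2 and Odf1 at 0 in all 4, and the part of this RNA in the KD results was not tested.

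A centrosome is built from a pair of centrioles and the pericentriolar material around them, which nucleates microtubules, and in most cells the older centriole can dock at the membrane and grow a cilium. Mouse oocytes lose their centrioles during oogenesis, and the spindles of the oocyte and of the first embryonic divisions are organised by centriole-free centres made of pericentriolar proteins, with centrioles and cilia forming only later in development. Bbs and Ift proteins work in cilia: the intraflagellar transport (IFT) complexes A and B carry cargo along the axoneme, and the BBSome carries membrane proteins in and out.

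By role, the genes fell into 8 sets. Cep44, Cep63, Cep76, Cep78, Cep85, Cep97, Cep120, Cep135, Cep152 and Cep295 act in centriole assembly and length. Cep57, Cep68, Cep72, Cep131, Cep192 and Cep250 belong to the pericentriolar material, the linker between centrioles and the satellites. Cep19, Cep20, Cep41, Cep43, Cep83, Cep89, Cep128, Cep162, Cep164, Cep170, Cep290 and Cep350 act at centriole appendages, the ciliary transition zone or the axoneme. The other Cep genes were Cep55, Cep70, Cep85l, Cep95, Cep112, Cep126 and Cep170b. The BBSome was covered by Bbs1, Bbs2, Bbs4, Bbs5, Bbs7 and Bbs9, and its chaperonin-like assembly factors by Bbs10 and Bbs12. IFT-A was covered by Ift43, Ift122 and Ift140, and IFT-B by Ift20, Ift22, Ift27, Ift46, Ift52, Ift57, Ift74, Ift80, Ift81, Ift88 and Ift172.

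A promoter element known from cilium genes is the X-box, the site of the RFX transcription factors, whose left part reads GTTGCC. Of the 58 genes, 50 had a promoter entry (RefSeq, GRCm38.p6, from 250 bases before to 50 bases after the annotated start). The X-box was found on either strand in 6 of them (12%), against 4.18% of the 27025 genes in the promoter table, and GTTGCC on either strand, which overlaps most X-box matches, in 16 (32.0%) against 14.1%. The X-box matches, which most of the 50 genes lack, are shown as the letters behind this share. They are printed 5′ to 3′ on the strand of the gene, with the match in capitals.
Bbs1, chr19:4906605-4906634, minus strand: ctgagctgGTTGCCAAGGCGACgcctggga
Bbs7, chr3:36613489-36613518, minus strand: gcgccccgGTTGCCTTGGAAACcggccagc
Cep41, chr6:30693858-30693887, minus strand: gtcccgcGTTGCCCTTGGCAACcattgagc
Cep89, chr7:35396962-35396991, plus strand: ttgctggGTTGTCAAGAGCAACgggtggca
Cep112, upstream match, chr11:108425018-108425047, plus strand: actagacaGTTACCATAGCAACggagctgc
Cep112, downstream match, chr11:108425174-108425203, plus strand: cccggagcGTCGCCATGGCAACagagttga
Ift57, upstream match, chr16:49699199-49699228, plus strand: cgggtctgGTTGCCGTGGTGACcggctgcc
Ift57, downstream match, chr16:49699226-49699255, plus strand: gccctgcgGTTGCCTGGTAACggtggggac
The match in Bbs1 lay at bases 2 to 15 after the start, and those in Bbs7, Cep41 and Cep89 began 121, 131 and 94 bases before it. In the zygote RNA-seq, 4 of the 6 genes with an X-box match were below 5 TPM, with a median of 2.65 TPM, against 9 of the 44 without one, with a median of 14.2. A match is a stretch of letters and not a shown binding site.

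The 58 genes spanned a wide range of levels in zygotes. TPM, which correct for transcript length and so allow genes to be compared, reached 1 or more for 51 to 54 of them in each RNA-seq library. Ift43, an IFT-A subunit, was first in the RNA-seq, at 866 and 875 TPM in WT and 872 and 1090 in KD. Bbs4, a BBSome subunit that also acts at centriolar satellites, came next in WT, at 598 and 553 TPM. Cep55, known for its part in the last step of cytokinesis, had 265 and 231 TPM in WT, and Ift20, an IFT-B subunit that also sits at the Golgi, had 259 and 204. In WT the first and second genes did not overlap with each other or with those after them, whereas the values of Cep55 and Ift20 did. Cep120, a centriole assembly protein, followed at 122 and 130 TPM and overlapped with Cep20 at 123 and 115.

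The lowest genes were subunits of cilium transport. Bbs1 had 0 and 0.113 TPM in WT and 0.484 and 0 in KD. Ift57 had 0.463 and 0.129 TPM in WT, and Ift172, the largest IFT-B subunit, 0.416 and 1.28. Over the 4 RNA-seq libraries the values of these 3 genes overlapped. So the IFT set held both the first gene in the order and genes near the floor of detection.

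The order was largely shared by the lysates of the RIP experiment, although that experiment used another library kit, so that kit and experiment cannot be told apart. Across the 58 genes, the Spearman correlation of the mean TPM of WT and Ctrl Input was 0.86, which describes these genes and shares their lengths and annotation. Bbs4 was first in the inputs, with 145 and 193 TPM in Ctrl Input and 152 and 127 in FLAG Input, and Cep55 second, with a mean of 119 TPM over the 4 inputs against 213 over the 4 RNA-seq libraries. Ift43 and Ift20 stood lower in the inputs, with means of 97.3 and 32.2 TPM against 263 TPM for Ift20 in the RNA-seq. Cep97, which with its partner CP110 caps centrioles, was 23rd of 58 in the RNA-seq but 54th in the inputs, where it lay between 0.758 and 1.17 TPM.

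**Figure D1:**
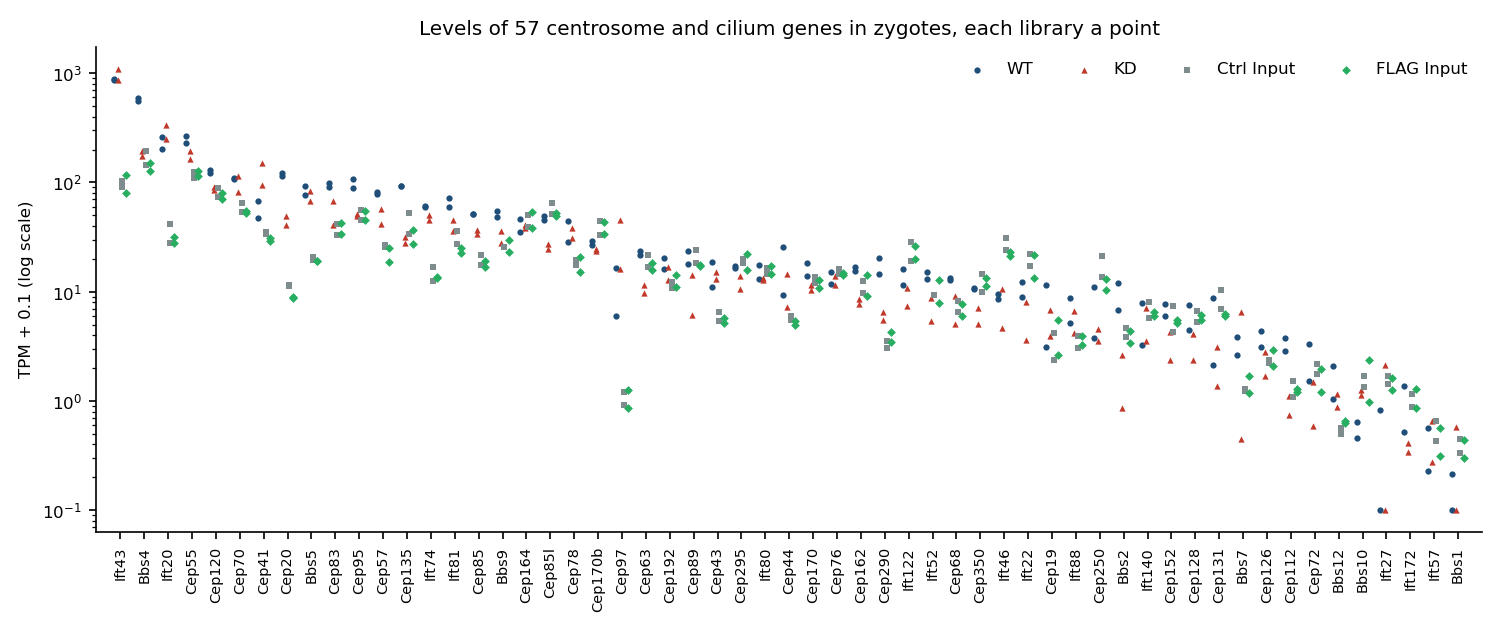
TPM of 57 of the genes in the KD, WT, Ctrl Input and FLAG Input libraries, with 1 point per library on a log axis (TPM + 0.1) and genes in order of level. Ift43, near 870 TPM in WT, and Bbs4 lead, and Bbs1, Ift57 and Ift172 close the order, near or below 1 TPM.

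In KD against WT, 54 of the 58 genes had enough counts to be tested, with Bbs1, Ift27, Ift57 and Ift172 left out by the filter. None was higher in KD (0 of 54, against 6.45% of all 11335 genes and repeats tested), and 5 were lower (9.26% of the 54, against 4.56% of all). At an unadjusted p under 0.05 the edgeR counts were 3 higher and 9 lower, where 14.2% and 12.9% of all features were. DESeq2 called 0 higher and 7 lower (13.0%, against 7.0% of all features lower). With limma on log2(TPM + 1), 0 were higher and 4 lower, and that share of 7.41% lower was that of all features (7.48%). Of the lower genes, Bbs4, Cep135, Cep290 and Cep20 are described here. Fewer transcripts per embryo and a change in the total RNA that sets the scale cannot be told apart in libraries of whole embryos.

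Bbs4 (chr9:59321966-59353508) had 238 and 228 normalized CPM in KD and 610 and 591 in WT. All KD values lay below all WT values, by a factor of 2.58 in the fit (log2 fold change -1.37 ± 0.18 SE, adjusted p = 0.0024). Cep135 (chr5:76588653-76646466), whose product is part of the cartwheel that templates the centriole, had 75.7 and 90.1 normalized CPM in KD and 204 and 217 in WT. Its groups did not overlap either (-1.34 ± 0.21, adjusted p = 0.0048). Both calls held under all 11 alternative settings, with adjusted p at most 0.010 for Bbs4 and 0.015 for Cep135.

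Cep290 and Cep20 act at the appendages, the transition zone or the axoneme. Cep290 (chr10:100487548-100575671), a scaffold of the transition zone that links the axoneme to the membrane, had 22.5 and 27.7 normalized CPM in KD and 68.5 and 50.8 in WT (-1.25 ± 0.29, adjusted p = 0.023). Cep20 (chr16:14299241-14318229), also known as Fopnl, which acts in the growth of cilia, had 26.5 and 34.0 in KD and 65.7 and 64.9 in WT (-1.10 ± 0.27, adjusted p = 0.027). In each, both KD values were below both WT values. These calls each hung on single libraries, in fits where the group left with 1 library takes its spread from the other: without KD replicate 1 the adjusted p of Cep20 was 0.098 and that of Cep290 was 0.058, without WT replicate 1 that of Cep290 was 0.085, and without WT replicate 2 that of Cep20 was 0.052. The promoter windows of Bbs4, Cep135, Cep290 and Cep20 held neither GTTGCC nor the X-box letters.

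**Figure D2:**
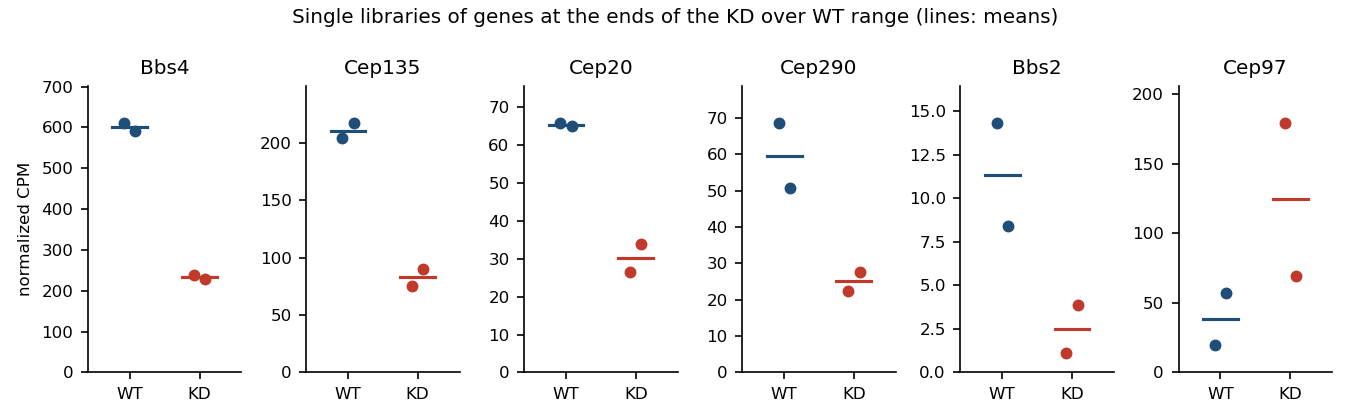
Normalized CPM in each KD and WT library for single genes at the ends of the KD over WT range, with a line at each group mean. The KD points of Bbs4, at 238 and 228, lie below its WT points at 610 and 591, while the points of Cep97 spread widely in both groups.

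As a whole, the genes leaned below 0 in KD. Of the 54, 38 had a log2 fold change below 0 (70.4%, against 49.7% of all features tested), and their median was -0.35, against 0.01 over all. With limma on log2(TPM + 1) the medians were -0.57 for these genes and -0.23 for all, so the distance from the median of all genes stayed between -0.38 and -0.30 over edgeR and the 7 alternatives that kept all libraries. Both KD values lay below both WT values for 22 genes (28.6% of all features did so) and above them for 7 (29.3% of all features). The summed level of the 58 genes was 2800 and 2840 normalized CPM in KD and 3460 and 3510 in WT, without overlap. The mean sum decreased by 664 normalized CPM from WT to KD. Of that net difference, 89.0% lay in the 5 lower genes and 55.3% in Bbs4 alone. These genes were picked as lower in the same libraries, so a large share follows from the choice. The other 53 genes together summed to 2410 and 2440 in KD and 2450 and 2550 in WT, where rises and falls of single genes partly offset each other.

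The roles differed in where their members lay, without a test between roles. All 6 genes of the pericentriolar material, linker and satellites had a fold change below 0, from -1.09 for Cep131 to -0.03 for Cep192, with a median of -0.61, and none passed the test. In the appendage, transition zone and axoneme set, 10 of 13 lay below 0, with a median of -0.55 and 3 lower. In the centriole assembly set, 7 of 10 lay below 0 with a median of -0.25, and Cep135 was the 1 call. Cep63 and Cep152, partners that bring the centriole duplication machinery to the parent centriole, were at -0.86 ± 0.37 and -0.73 ± 0.46 with adjusted p of 0.16 and 0.34. The 7 other Cep genes had a median of -0.52 and no call. Cep95 came closest among them, with 67.4 and 69.1 normalized CPM in KD against 117 and 101 in WT (-0.68 ± 0.22, adjusted p = 0.078).

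The cilium transport genes were spread on both sides. The median was -0.41 over 5 tested BBSome genes, 0.19 over the 3 IFT-A genes and -0.08 over 8 tested IFT-B genes, and Bbs4 was the 1 call. Bbs2, another BBSome subunit, had 1.11 and 3.86 normalized CPM in KD against 14.3 and 8.40 in WT (-2.11 ± 0.67, adjusted p = 0.069). Ift43 had 285 and 375 in KD and 232 and 249 in WT, and Ift20 had 81.4 and 115 in KD and 68.7 and 57.4 in WT. On this scale both sat above WT in each KD library, with log2 fold changes of 0.46 ± 0.21 and 0.64 ± 0.25 that did not pass (adjusted p = 0.18 and 0.13). In TPM the groups overlapped for both genes. Ift43 had 872 and 1090 TPM in KD against 866 and 875 in WT, and Ift20 had 251 and 337 against 259 and 204. By family, the median was -0.53 over 36 Cep genes, -0.31 over 7 Bbs genes and -0.07 over 11 Ift genes.

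The largest value above 0 was that of Cep97, with 179 and 69.6 normalized CPM in KD against 19.5 and 57.3 in WT. Its 2 KD libraries differed from each other more than KD replicate 2 differed from WT replicate 2, and the fold change of 1.70 ± 0.51 did not pass (adjusted p = 0.058). Without KD replicate 2 or without WT replicate 2 the adjusted p was 0.0061 and 0.00037, and without KD replicate 1 it was 0.21, but each of these fits assumes that the lone library varies like the other group and leaves out part of the spread just described. Cep55 (-0.07 ± 0.20) and Cep120 (-0.23 ± 0.20), 2 of the most abundant genes, were near 0.

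**Figure D3:**
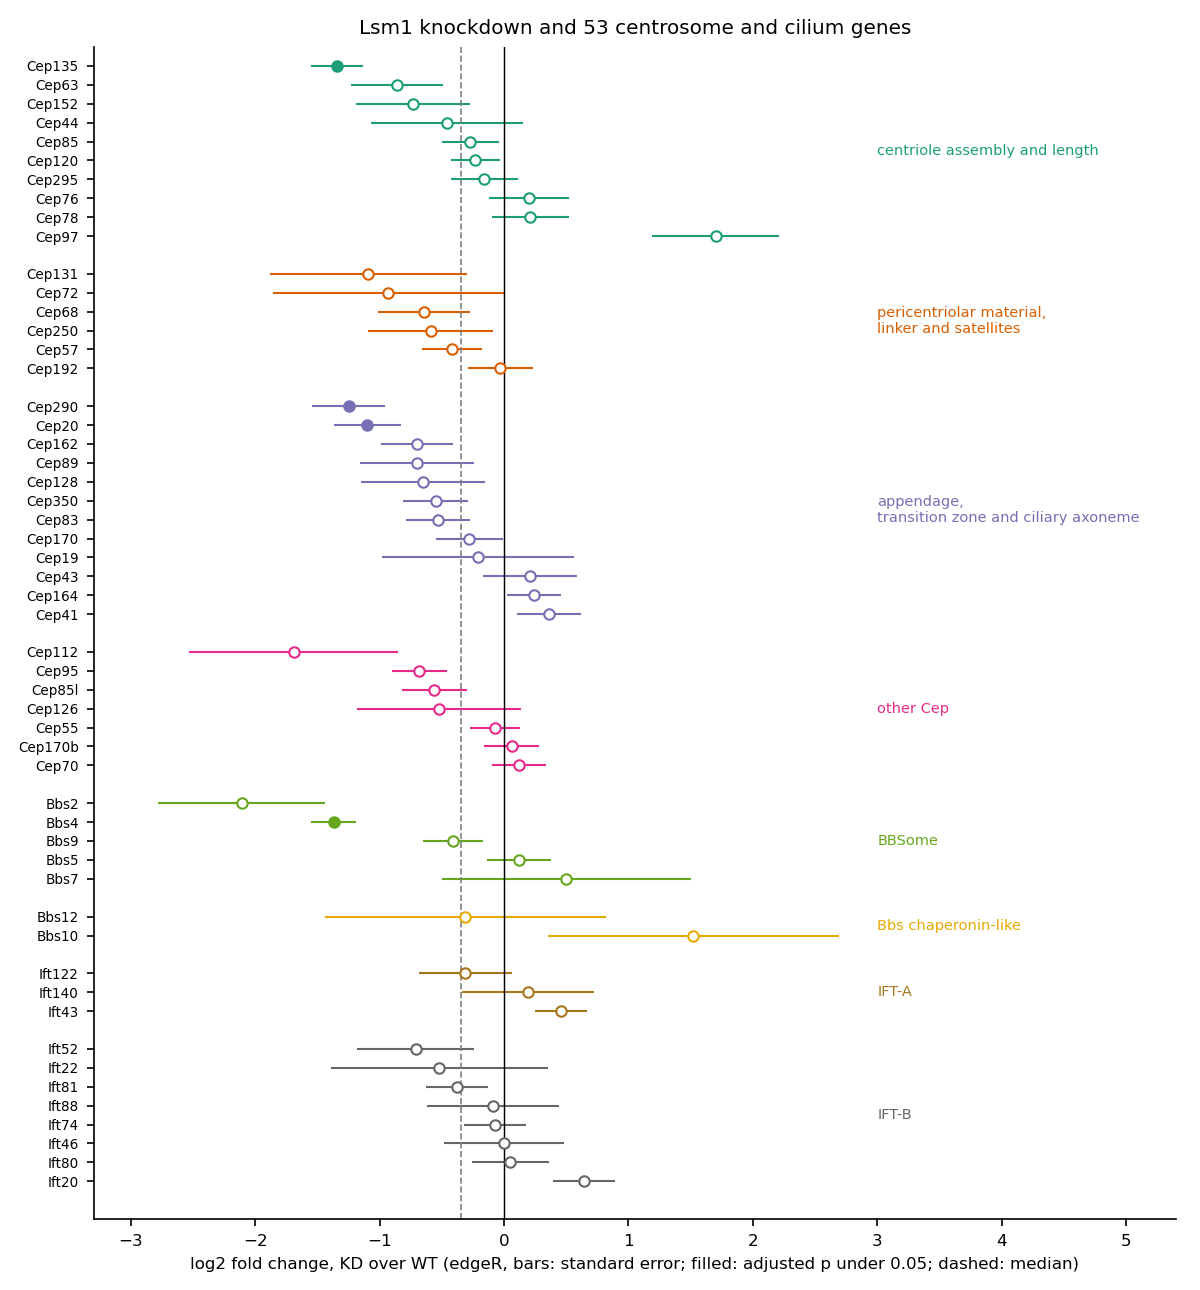
Log2 fold change of KD over WT for 53 of the tested genes, grouped by role, with bars for the standard error, filled points for an adjusted p under 0.05 and a dashed line at the median of -0.35. The filled points, Bbs4, Cep135, Cep290 and Cep20, lie between -1.37 and -1.10.

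Transcript length, weighted by the TPM of each RefSeq transcript, ran from 802 to 13307 nt over the 54 genes with a median of 3191. Across these genes the Spearman correlation of the KD over WT log2 fold change with length was -0.09, and across the 10634 protein-coding genes tested it was -0.16, both descriptions across genes that share the 4 libraries. Over 5 bins of length with like numbers of protein-coding genes, in the bin of the shortest genes (286 to 1706 nt), the median was 0.36 over 2127 protein-coding genes and -0.21 over the 7 centrosome and cilium genes in it. In the longer bins the medians were -0.05, -0.07, -0.06 and -0.16 over all genes and -0.42, -0.38, -0.42 and -0.28 over the 7, 17, 10 and 13 centrosome and cilium genes. The median of the centrosome and cilium genes was thus below that of genes of like length in each bin, while single genes such as Ift20, Ift43 and Cep97 lay above it. The 5 lower genes ran from 1422 nt for Cep20 to 8006 nt for Cep290, with none in the bin of 3491 to 4930 nt.

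**Figure D4:**
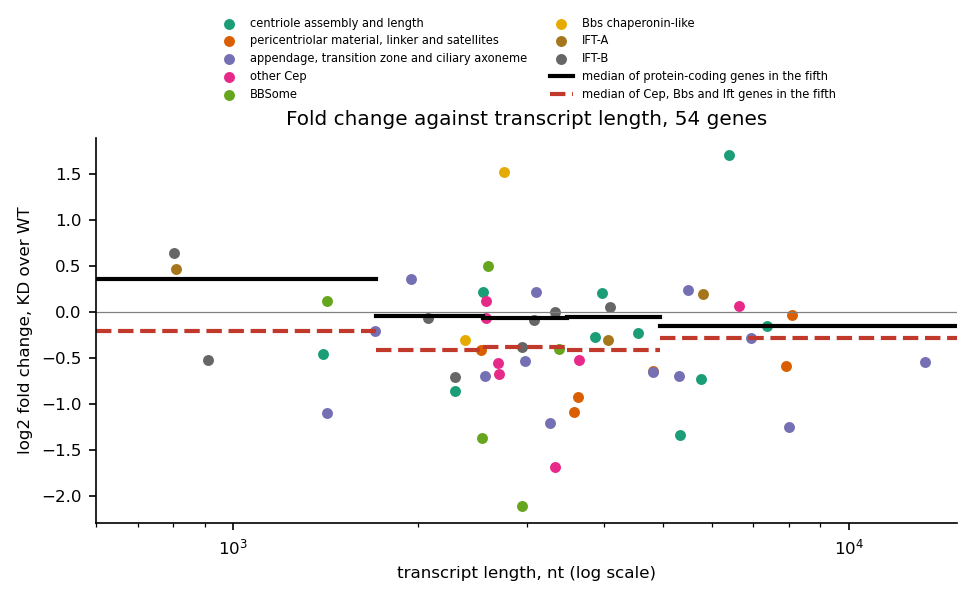
Log2 fold change of KD over WT against transcript length in nt (log axis) for the 54 genes, coloured by role, with black lines for the median of protein-coding genes and dashed red lines for that of the Cep, Bbs and Ift genes in each of 5 bins of length. The red lines, from -0.42 to -0.21, lie below the black lines, from -0.16 to 0.36, in every bin.

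Among genes with several RefSeq transcripts, Cep55 and Cep95 showed different mixes in KD and WT. They were chosen after their values were seen, and the shifts were not tested. In other genes such shares could swing within a group. NM_031177 of Ift122 took 100% of its gene in KD replicate 1 and 9.72e-06% in KD replicate 2, and NM_026665 of Cep57 took 46.8% and 90.1%. Cep55 (chromosome 19, plus strand) has transcripts that share their coding start at 38057801 and differ mainly in the noncoding exons before it. NM_028293, whose first exon of 98 nt starts at 38054984 and joins the coding exon directly, had 13.5 and 13.7 TPM in KD against 163 and 125 in WT, which was 8.29% and 7.01% of the gene's TPM in KD against 61.5% and 54.4% in WT. NM_028760, which starts 57 bases downstream with a first exon of 277 nt and holds a second noncoding exon, had 87.3 and 101 TPM in KD against 43.0 and 59.1 in WT. NM_001164362, which differs from it in the length of the second exon and in the start of the last one (38073298 against 38073301), had 61.7 and 80.8 in KD against 59.3 and 46.1 in WT. Summed over the gene, Cep55 had 216 and 275 normalized CPM in KD against 269 and 247 in WT, which overlap. It had 163 and 195 TPM in KD against 265 and 231 in WT, which do not. On the scale of log2(TPM + 1), however, the median KD over WT difference of all features tested was itself -0.23. Salmon's assignment of reads among these overlapping transcripts enters each value. The exons given are those of GRCm38.p6. For NM_028293 their lengths do not add up to the 2385 nt that were quantified, so the quantified version may have other ends.

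Cep95 (chromosome 11, plus strand) has a transcript with and a transcript without a coding exon of 129 nt, its seventh. NM_177088, which holds the exon, had 26.2 and 37.1 TPM in KD against 103 and 88.1 in WT. NM_001166685, which lacks it, had 25.5 and 12.5 TPM in KD against 4.23 and 0 in WT. The transcript with the exon made up 50.7% and 74.9% of the gene in KD and 96.0% and 100% in WT, without overlap. In the RIP inputs, made with another kit, it took 84.2% and 82.0% in Ctrl Input and 89.5% and 67.0% in FLAG Input. The share in FLAG Input replicate 2 thus lay below that in KD replicate 2. The exon (GRCm38.p6, chr11:106804993-106805121) is shown in capitals because it is what sets the transcripts apart, with 10 intron bases on each side in lower case.
Cep95 exon 7, chr11:106804983-106805131, plus strand: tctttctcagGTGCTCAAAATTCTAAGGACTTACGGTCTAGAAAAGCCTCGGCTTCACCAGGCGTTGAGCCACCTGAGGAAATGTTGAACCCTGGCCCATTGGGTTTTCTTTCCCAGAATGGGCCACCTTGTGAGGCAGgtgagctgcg
Its length of 43 codons leaves the reading frame of the remaining exons as it is.

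Other genes of the same structures were taken from lists that leave out the 58. Of 16 centriole assembly genes, 1 was higher (6.25%, against 6.45% of all features) and none lower. The higher gene was Cetn2, a centriole calcium-binding protein. Cetn2 had 32.7 and 24.8 normalized CPM in KD against 9.90 and 7.57 in WT (1.70 ± 0.37, adjusted p = 0.019, edgeR). Of 17 tested genes of the pericentriolar material and microtubule organising centres, 4 were lower (23.5%, against 4.56% of all features) and none higher. They were Akap9 (88.3 and 72.5 against 212 and 216 normalized CPM), Tacc3 (235 and 222 against 516 and 512), Nin (411 and 372 against 767 and 919) and Pcnt (284 and 297 against 448 and 561), with log2 fold changes of -1.41, -1.17, -1.11 and -0.80. All are scaffolds or microtubule regulators of spindle poles, and none of the 4 overlapped between groups. In the other lists at most 1 gene was called. Of 22 appendage and transition zone genes, Fbf1 was lower (-2.02, adjusted p = 0.037, edgeR), a share of 4.55% against 4.56% of all features. Of 15 other IFT and BBSome genes none was called. Dynll1, a dynein light chain, was higher among 9 cilium motor genes (2.28, adjusted p = 0.0064, edgeR), a share of 11.1% against 6.45%. Rfx7 was lower among 6 transcription factors of ciliogenesis (-0.84, adjusted p = 0.048, edgeR), a share of 16.7% against 4.56%. In lists this short, 1 call sets the share.

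Between FLAG Input and Ctrl Input, 0 of 58 genes were higher and 0 lower by edgeR, against 0.0% and 0.0% of 18973 features tested, with 0 at an unadjusted p under 0.05 and 0 by DESeq2. The same fit did not call the injected Lsm1 RNA itself (log2 fold change 9.55 ± 2.74, adjusted p = 1.0), so these counts of 0 do not show that the genes were stable. Log2 fold changes of the 58 genes ran from -0.47 to 0.58 with a median of -0.03.

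On the FLAG beads, 4 of the 58 genes were higher than in their own input (6.9%, against 21.0% of all features tested) and 4 were lower (6.9%, against 5.48%). The higher genes were Bbs1, Cep97, Cep290 and Ift172, and the lower ones Bbs9, Bbs4, Ift43 and Ift122. The study kept part of each lysate as input, and if IP and Input of the same number share a lysate, a block for the lysate gave 4 higher and 7 lower (6.9% and 12.1%, against 21.9% and 9.98% of all features). The median log2 ratio was -0.36 against 0.49 over all features, and -0.14 against 0.10 without FLAG IP replicate 1.

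Bbs1 had 0.893 and 1.79 normalized CPM in FLAG Input and 46.8 and 9.74 in FLAG IP (log2 ratio 4.39 ± 0.72, adjusted p = 0.0041). It had 1.17 and 1.51 in Ctrl Input and 5.05 and 5.17 in Ctrl IP, so it was also above its input on the control beads (1.93, adjusted p = 0.16). Ift172 had 5.23 and 3.91 in FLAG Input and 34.9 and 7.53 in FLAG IP (2.22 ± 0.62, adjusted p = 0.026). Cep97 had 5.57 and 3.95 in FLAG Input and 35.0 and 10.6 in FLAG IP (2.26 ± 0.55, adjusted p = 0.017, edgeR). Ift172 and Cep97 were also above their inputs on the control beads, at 0.68 and 0.98 (adjusted p = 0.67 and 0.40, edgeR). In these 3 genes FLAG IP replicate 1 was far above replicate 2, and without it the ratios were 2.81 (adjusted p = 0.0075), 0.68 (0.24) and 1.11 (0.071). That library also had 20.9 TPM summed over the 8 cumulus cell markers (0.897 to 3.12 in the other RIP libraries, and all 8 above 0 only there) and 43.8 TPM over the 7 measured multiciliated cell markers (2.16 to 4.46 in the others), while its 30.4 TPM over the 6 sperm markers lay below the 32.0 of Ctrl IP replicate 1. Their part in the ratios was not tested.

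Cep290 was called above its input on both kinds of beads. It had 27.4 and 25.7 normalized CPM in FLAG Input and 49.7 and 115 in FLAG IP (1.63 ± 0.40, adjusted p = 0.018). On the control beads it had 67.5 and 85.1 against 21.7 and 21.5 in Ctrl Input (1.82 ± 0.40, adjusted p = 0.041). Its FLAG ratio differed from its Ctrl ratio by -0.19 ± 0.55 (adjusted p = 0.92). Without FLAG IP replicate 1 the FLAG ratio was 2.07 (adjusted p = 0.00024). Without FLAG Input replicate 1 or 2 the adjusted p of the FLAG ratio was 0.13 and 0.12, and those of Cep97 and Ift172 were also 0.088 or more, which left Bbs1 alone among the higher genes.

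The lower genes were all among the 19 highest in the inputs. Bbs4 had 299 and 290 normalized CPM in FLAG Input and 69.0 and 132 in FLAG IP (-1.55 ± 0.50, adjusted p = 0.041), and 322 and 359 in Ctrl Input against 236 and 229 in Ctrl IP (-0.55, adjusted p = 0.67). Bbs9, a BBSome subunit, had 79.7 and 72.0 in FLAG Input and 20.1 and 41.9 in FLAG IP (-1.29 ± 0.38, adjusted p = 0.033). Ift43 had 59.5 and 47.5 in FLAG Input and 10.8 and 32.5 in FLAG IP (-1.31 ± 0.44, adjusted p = 0.048). Ift122, an IFT-A subunit, had 84.3 and 75.0 in FLAG Input and 22.3 and 45.8 in FLAG IP (-1.23 ± 0.42, adjusted p = 0.049). In each, both IP values were below both input values and FLAG IP replicate 1 was the lowest. Without it the ratios of Bbs4, Bbs9, Ift43 and Ift122 were -1.20, -0.89, -0.76 and -0.84, and Ift122 no longer passed (adjusted p = 0.074). Without FLAG IP replicate 1 the counts were 5 higher and 7 lower (10.5% and 9.48% of all features), and without FLAG IP replicate 2 they were 7 and 32 (35.9% and 28.5% of all features). Leaving out any other RIP library (FLAG Input, Ctrl Input or Ctrl IP) removed the lower calls, and lower calls over all features also became fewer. In those fits the median log2 ratio was -0.42 to -0.36 over the 58 genes, against 0.80 to 0.91 over all features.

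The control beads called 1 gene higher, Cep290 (1.72% of the 58, against 2.12% of all features), and 0 lower (against 0.00527%). At an unadjusted p under 0.05 there were 2 higher and 0 lower by edgeR, where 16.3% and 0.733% of all features were. DESeq2 called 1 and 0, against 7.07% and 0.0369% of all features. With the lysate as a block there were 2 higher, Bbs1 and Cep290 (3.45%, against 7.57% of all features). Leaving out single libraries moved the higher count between 0 and 3. Of the 58 genes, 41 were below their input on the control beads, with a median of -0.20 against 0.12 over all features.

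When the FLAG ratio was set against the Ctrl ratio, which asks for RNA caught through the tag beyond what the beads hold, 0 genes were higher and 0 lower by edgeR (0.0% and 0.0% of all features), and DESeq2 and limma called 0 as well. At an unadjusted p under 0.05 there was 1 higher, Bbs1 (2.46 ± 0.92, unadjusted p = 0.021, adjusted p = 0.79), and 0 lower, where 3.99% and 1.26% of all features were. Without FLAG IP replicate 2 both counts rose, but that fit leaves only the library that stood apart in FLAG IP. No share over all features is given for it, so the rise cannot be tied to these genes.

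In every IP library the ratio to its input went down with the level of the gene. Taken as log2(IP + 1) minus log2(Input + 1) of normalized CPM against TPM in Ctrl Input, the Spearman correlation across the 58 genes was -0.78 and -0.44 in the FLAG libraries and -0.48 and -0.44 in the Ctrl libraries. Over all 18973 features it was -0.80, -0.64, -0.53 and -0.54. These describe genes within a library, and the Ctrl ratios share the Ctrl Input with the x axis. The 15 genes under 5 TPM had median ratios of 0.70 and 0.53 in FLAG and 0.25 and 0.26 in Ctrl, and the 15 genes of at least 30 TPM had -1.90 and -0.28 in FLAG and -0.38 and -0.34 in Ctrl. The pattern was thus in the control pull-down as in the FLAG pull-down, and was steepest in FLAG IP replicate 1.

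**Figure D5:**
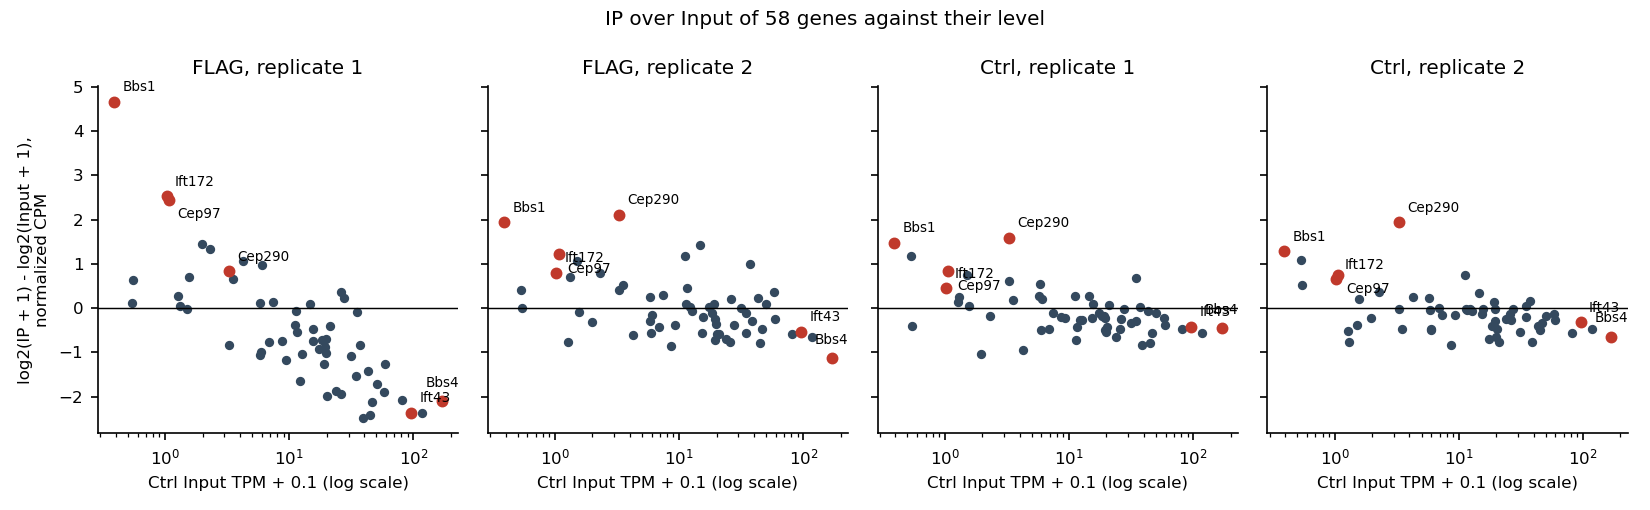
Log2 ratio of IP over Input against TPM in Ctrl Input (log axis, TPM + 0.1) for the 58 genes in each of the 4 IP libraries, from normalized CPM with 1 added, and with Bbs1, Ift172, Cep97, Cep290, Ift43 and Bbs4 in red. Genes of at least 30 TPM have a median of -1.90 in FLAG IP replicate 1 and of -0.38 to -0.28 in the other 3 libraries.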

How the data were processed

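Per the labels, the authors trimmed the reads (Trimmomatic, FastQC) and quantified them with Salmon against mm10 transcripts and repeats. The deposited values are estimated counts and TPM per RefSeq transcript, made by the authors with no other normalization, and 55.5% of nonzero estimated counts were not whole (tolerance 1e-06). The use of strand in counting is not given in the sources used here. Of 37366 RefSeq transcripts, 37067 matched a GRCm38.p6 gene, and estimated counts were summed by gene and rounded. RNA-seq and RIP-seq libraries were made with different kits.

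Counts were tested in R 4.3.3 with edgeR 4.0.16 (glmQLFit, glmQLFTest) with TMM factors, filterByExpr and Benjamini-Hochberg adjustment over all features, on the 4 RNA-seq libraries or the 8 RIP-seq libraries. It was checked on simulated counts. Alternatives were DESeq2 1.42.0, limma 3.58.1 on log2(TPM + 1), upper-quartile factors, no filter, a length trend, protein-coding genes only, blocks and leaving out each library, where a group left with 1 library is assumed to vary like the others. Common dispersions of 0.112 (RNA-seq) and 0.239 (RIP-seq) limit the precision. The study's methods kept part of each lysate as input but do not tie replicate numbers to lysates, so the lysate block assumes that they match. Deviations of libraries with the same number correlated at 0.14 in FLAG and 0.11 in Ctrl.

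The genes, roles and lists were chosen with earlier results of these data known. Named genes were all those called, up to 8 per direction in each RIP-seq comparison, the 2 most abundant of each role, and the 3 highest and 3 lowest by TPM, with others added where a sentence turns on them. Promoter and exon sequences come from RefSeq and the GRCm38.p6 genome. The result of 1 gene is not reported here, though it enters the counts.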

Additional observations from a re-analysis of the deposited data

How the results depend on the processing

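The count of genes higher in KD (0) became 1 (Cep97) with upper-quartile factors, no filter, protein-coding genes only or a length trend. Of all features, 6.66%, 6.18%, 6.96% and 4.9% were higher in these fits. Leaving out a library could also move this count. The count lower in KD (5) ranged from 3 to 5 when leaving out a library. With the replicate number as a block it was 2, Bbs4 and Cep135 (3.7%, against 1.91% of all features). Same-numbered KD and WT libraries share only a number (correlation of deviations -0.17), so that result says nothing of pairing. The KD median of -0.35 was -0.57 with limma and -0.38 to -0.26 when leaving out a library. The length correlation of -0.09 was 0.13 with the length trend removed, which takes that trend out by construction, and -0.17 to 0.01 when leaving out a library. On the FLAG beads the count higher (4) was 0 with limma, against 2.58% of all features. It also moved in both directions when leaving out a library. The count lower (4) was 8 with DESeq2, 11 with a length trend, 10 with limma, 2 with upper-quartile factors, 7 with the lysate as a replicate block, and 0 to 32 when leaving out a library. With DESeq2, a length trend and limma, the shares lower were 13.8%, 19.0% and 17.2%, against 11.6%, 14.3% and 12.3% of all features. With upper-quartile factors and the lysate block they were 3.45% and 12.1%, against 1.96% and 9.98% of all features. Across these fits the share of these genes thus rose and fell with that of all features. On control beads the count higher (1) was 0 with a length trend, limma or protein-coding genes only (1.3%, 0.495% and 0.435% of all features). It was 2 with no filter or the lysate block (3.45%, against 6.94% and 7.57% of all features). Leaving out a library could move both this count and the count lower (0). The counts for the FLAG ratio over the Ctrl ratio moved only without FLAG IP replicate 2. In that fit FLAG IP keeps only the library that stood apart. No share over all features is given for it, so the range that follows cannot be tied to these genes. For the FLAG ratio over the Ctrl ratio, leaving out a library gave 0 to 4 higher and 0 to 23 lower. Cep83 on the FLAG beads went from 0.32 to -0.77 (adjusted p = 0.0063, edgeR) without FLAG IP replicate 2, and to 0.89 (0.013) without FLAG IP replicate 1. The causes were not tested. The input comparison gave 0 in each direction under all 15 alternatives, which says nothing of stability, since edgeR did not call the injected Lsm1 either. The median of all features on the FLAG beads moved from 0.49 to 0.93 with upper-quartile factors and -0.19 with a length trend. In the fits that kept all libraries, the distance of these genes from it lay between -1.42 and -0.65. Without FLAG IP replicate 1 the medians were -0.14 for these genes and 0.10 for all features. Without FLAG IP replicate 2 they were -0.75 and 1.09. Of calls in KD over all features, 58.6% were higher with edgeR and 33.3% with limma, and of those on the FLAG beads 79.3%, and 17.3% with limma. With 2 libraries per group, small changes were not detectable, and genes below 1 TPM rest on few counts.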

Other observations

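Exons of 6 of the genes overlap an annotated gene on the opposite strand, and without knowledge of strand in the counting their reads cannot be told apart there. Cep57 shares 1058 bases with Mtmr2, which had 109 to 146 TPM in the RNA-seq. Cep295 shares 84 bases with Taf1d, which had 225 and 211 TPM in KD against 65.7 and 61.2 in WT. Cep290 shares 881 bases with 4930430F08Rik, which stayed at or below 0.306 TPM in all 12 libraries.

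Cep41, an axoneme protein of the cilium, had a short noncoding transcript among its RefSeq models. NR_130775, of 534 nt, had 73.7 and 131 TPM in KD against 38.7 and 21.2 in WT. The KD values lay above the WT values, chosen after they were seen, and the difference was not tested.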
